A study of Mus musculus with 12 samples.

Results

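The B3gnt genes encode beta-1,3-N-acetylglucosaminyltransferases, Golgi enzymes that add N-acetylglucosamine to a terminal galactose. Alternating with beta-1,4-galactosyltransferases, they build polylactosamine, a repeating chain that extends N-glycans, O-glycans and glycolipids and that galectins bind. On immune cells these chains sit on surface receptors, and their length and branching are set by the enzymes present. The panel measured here held 4 of these genes among its 84, and they were taken by symbol: B3gnt2, B3gnt3, B3gnt4 and B3gnt8. B3gnt2 is the broadly expressed polylactosamine synthase, B3gnt3 extends core 1 O-glycans on ligands of L-selectin, and B3gnt8 prefers branched N-glycans and, in work on the human enzymes, raises the activity of B3gnt2 by pairing with it. B3gnt4 encodes a further enzyme of the family, with weak activity in studies of the human protein.

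Messenger RNA was measured by quantitative real-time PCR on 96-well plates in 12 deposited mouse samples, 3 in each of 4 groups. The DC2.4 line of immortalized mouse dendritic cells was kept unstimulated or given TGF-beta for 4 days, at 2.5 ng/ml by one protocol in the labels and at 10 ng/ml by another. Type 1 dendritic cells (DC1), which cross-present antigen to CD8 T cells, were isolated by sorting, from the spleen in one group and from subcutaneous MCA101 fibrosarcomas in the other. The labels call the splenic cells XCR-1-positive and the tumor cells CD103-positive, so the tissue cannot be told apart from the sort marker, and they do not give the strain, age or number of the mice. The third sample of each group held values computed from the other 2, so n = 2 separately measured samples per group. Whether they were separate cultures or animals is not said in the labels, so the p-values measure the spread of these samples alone, which may be technical.

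Depth in this assay is the threshold cycle (Ct), the PCR cycle whose fluorescence crosses a threshold, with a lower Ct for more template. In the 8 measured samples, between 64 and 76 of the 84 panel genes were under Ct 35, with a median Ct per sample from 22.8 to 30.8 over those genes. The mean Ct of the 5 reference wells lay between 17.0 and 24.3. In DC2.4 cells template amount followed the sample and not the treatment, with median Ct of 26.2 (unstimulated) and 27.5 (treated) in replicate 1 and of 23.0 and 22.8 in replicate 2. None of 16 listed markers of dendritic cells, macrophages, lymphocytes and fibroblasts is on the panel, so the labelled cell types were not checked against markers.

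The 4 genes lie on different chromosomes, and the promoter of each is shown because the family members had unlike patterns over the groups. The sequences are those of RefSeq for mouse build GRCm38.p6, from 250 bases before to 50 after the start of each gene as the table gives it, read 5′ to 3′ on the strand of the gene. B3gnt2 is at chr11:22859686-22859985 on the minus strand, B3gnt3 at chr8:71701751-71702050 on the minus strand, B3gnt4 at chr5:123508232-123508531 on the plus strand and B3gnt8 at chr7:25627374-25627673 on the plus strand. Capitals mark the GC box, searched as GGGCGG and as CCGCCC for the other strand, with overlapping matches counted.
B3gnt2: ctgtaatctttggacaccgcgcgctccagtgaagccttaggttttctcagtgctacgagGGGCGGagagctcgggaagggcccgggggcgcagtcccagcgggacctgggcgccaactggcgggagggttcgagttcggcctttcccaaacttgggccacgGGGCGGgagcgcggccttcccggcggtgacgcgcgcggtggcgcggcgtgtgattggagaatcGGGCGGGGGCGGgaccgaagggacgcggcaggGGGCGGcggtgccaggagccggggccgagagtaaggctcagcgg
B3gnt3: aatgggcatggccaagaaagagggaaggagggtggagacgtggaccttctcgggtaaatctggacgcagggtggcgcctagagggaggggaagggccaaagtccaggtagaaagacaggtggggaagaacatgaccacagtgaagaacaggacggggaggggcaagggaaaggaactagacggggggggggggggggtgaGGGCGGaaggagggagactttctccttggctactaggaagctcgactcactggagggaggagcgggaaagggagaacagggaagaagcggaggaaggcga
B3gnt4: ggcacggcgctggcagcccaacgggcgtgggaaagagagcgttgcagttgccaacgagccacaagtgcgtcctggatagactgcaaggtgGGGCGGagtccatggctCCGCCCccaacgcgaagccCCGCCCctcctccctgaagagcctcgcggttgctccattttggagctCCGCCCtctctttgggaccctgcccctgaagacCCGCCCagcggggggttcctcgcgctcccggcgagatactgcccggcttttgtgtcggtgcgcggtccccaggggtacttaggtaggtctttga
B3gnt8: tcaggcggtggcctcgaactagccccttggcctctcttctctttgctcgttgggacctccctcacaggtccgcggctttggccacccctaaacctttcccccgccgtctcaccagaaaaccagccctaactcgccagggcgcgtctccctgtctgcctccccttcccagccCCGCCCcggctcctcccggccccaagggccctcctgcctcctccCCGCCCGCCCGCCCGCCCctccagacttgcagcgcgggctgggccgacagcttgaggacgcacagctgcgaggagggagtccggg
The B3gnt2, B3gnt4 and B3gnt8 windows each held 5 matches to the GC box and the B3gnt3 window held 1, while 35.7% of 32851 promoters of this length held at least 1. The SMAD box, the short element bound by the factors that carry TGF-beta signals, was searched as CAGAC and GTCTG. It matched at -100 and -14 from the start site in B3gnt8 and nowhere in the other 3 windows, and 49.6% of all promoters held it. TATAAA and TGANTCA, the AP-1 element, had 0 matches in the 4 windows and were held by 13.6% and 7.81% of all promoters. A match is a description of these letters and does not show a site in use.

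The tested quantity was the log2 relative level, the gene's Ct subtracted from the mean Ct of the 5 reference wells, with Ct over 35 set to 35. A level of one gene is not compared with that of another, because primers differ in efficiency. Of the 4 genes, B3gnt2, B3gnt3 and B3gnt8 were under Ct 35 in all 8 measured samples and B3gnt4 in 6. Levels of the 2 DC1 groups are given as the samples are labelled, a direction that the authors' deposited table runs against, and with those labels exchanged splenic and tumor DC1 change places in the order of each gene. The group means of B3gnt2 spanned 2.24 log2 units, those of B3gnt4 5.35, those of B3gnt3 8.50 and those of B3gnt8 8.73.

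**Figure D1:**
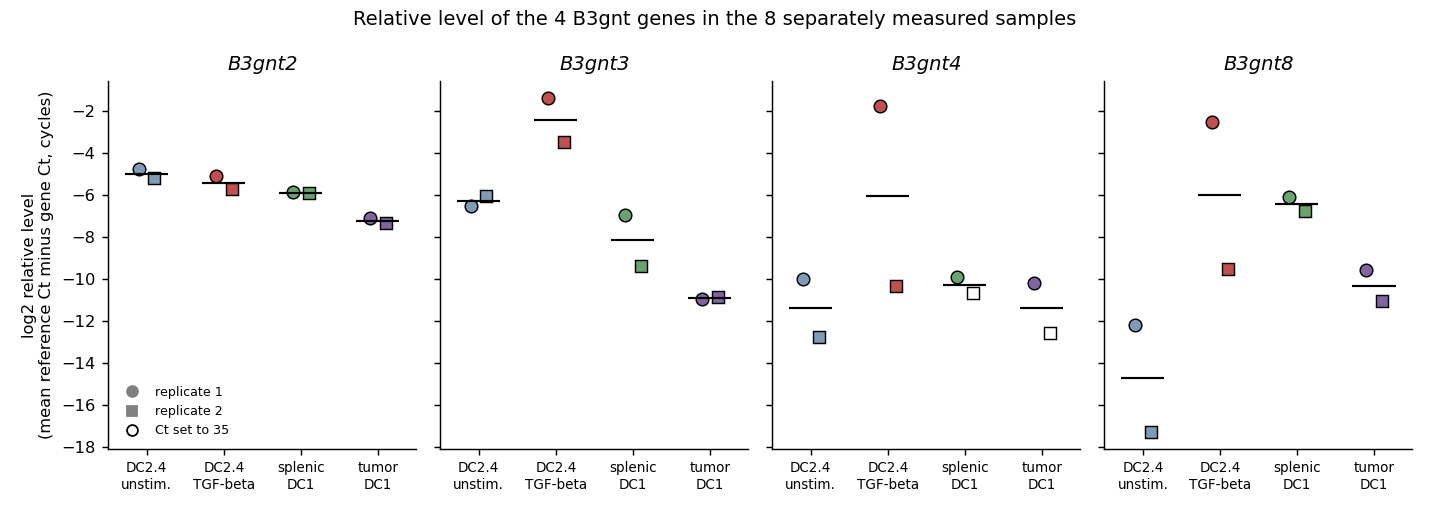
Log2 relative level (vertical axis, cycles) of the 4 B3gnt genes in the 4 groups; circles are replicate 1, squares replicate 2, bars the mean of both, and open symbols wells with Ct over 35 set to 35. B3gnt2 stays between -7.31 and -4.73 in all 8 samples, while TGF-beta treated replicate 1 stands well above replicate 2 in B3gnt4 and B3gnt8.

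B3gnt2 had the smallest spread of the family, and its means were ordered from unstimulated DC2.4 cells at the top to tumor DC1, or splenic DC1 with the labels exchanged, at the bottom. Its log2 relative level was -4.73 and -5.20 in unstimulated DC2.4 cells and -5.10 and -5.72 in treated cells. It was -5.84 and -5.91 in splenic DC1 and -7.11 and -7.31 in tumor DC1. The 2 DC2.4 groups overlapped, both splenic samples lay below both treated ones, and tumor DC1 lay below the other 3 groups. In splenic DC1 the 2 replicates of B3gnt2 differed by 0.08, and 64 of 66 genes measured in both had a larger gap.

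B3gnt3 was highest in treated DC2.4 cells and lowest in tumor DC1, or splenic DC1 with the labels exchanged, and no neighbouring groups in that order overlapped. Its level was -1.36 and -3.48 in treated and -6.53 and -6.06 in unstimulated DC2.4 cells. It was -6.92 and -9.36 in splenic DC1 and -10.97 and -10.86 in tumor DC1. The replicates were close in unstimulated cells and in tumor DC1, and more than 2 units apart in the other 2 groups. In tumor DC1 the Ct of B3gnt3 was 34.9 and 33.3, close to the limit of 35.

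B3gnt8 was lowest in unstimulated DC2.4 cells, at -12.18 and -17.29, with Ct of 32.8 and 34.2. It was -2.49 and -9.52 in treated cells, -6.11 and -6.76 in splenic DC1 and -9.57 and -11.06 in tumor DC1. Treated DC2.4 cells and splenic DC1 overlapped at the top of the order, and tumor DC1 and unstimulated cells were each apart from the group above. The lowest level that can be recorded is the mean reference Ct minus 35. With a mean reference Ct of 23.9 and 22.4 in tumor DC1, against 20.6 and 17.0 in unstimulated cells, a level of -17.29 could not be recorded in tumor DC1. The gap between replicates was 7.03 in treated and 5.11 in unstimulated DC2.4 cells, against 0.65 in splenic DC1. Over the panel the median gap was 0.92 in treated and 0.50 in unstimulated cells, and 5 of 72 and 1 of 66 genes had a larger gap than B3gnt8.

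B3gnt4 gave no order that held against its replicates. Its level was -1.74 and -10.31 in treated DC2.4 cells, -10.01 and -12.74 in unstimulated cells, -9.91 and -10.68 in splenic DC1 and -10.20 and -12.55 in tumor DC1. Every group overlapped its neighbour in the order of means, and treated replicate 1 alone stood above the rest. The second splenic and the second tumor sample had Ct of 36.8 and 35.1 and were set to 35, so their levels are upper bounds.

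Ct was read beside these gaps. In DC2.4 cells the reference wells of replicate 2 came up earlier than those of replicate 1, at a mean Ct of 17.0 against 20.6 in unstimulated and of 17.0 against 22.1 in treated cells. B3gnt2 followed them, at 22.2 against 25.4 and 22.7 against 27.2. B3gnt8 did not, and came up later in replicate 2 than in replicate 1 of both groups, at 34.2 against 32.8 and at 26.5 against 24.6. B3gnt4 came up earlier in replicate 2 of unstimulated cells, at 29.7 against 30.6, and later in replicate 2 of treated cells, at 27.3 against 23.8. The cause was not tested.

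**Figure D2:**
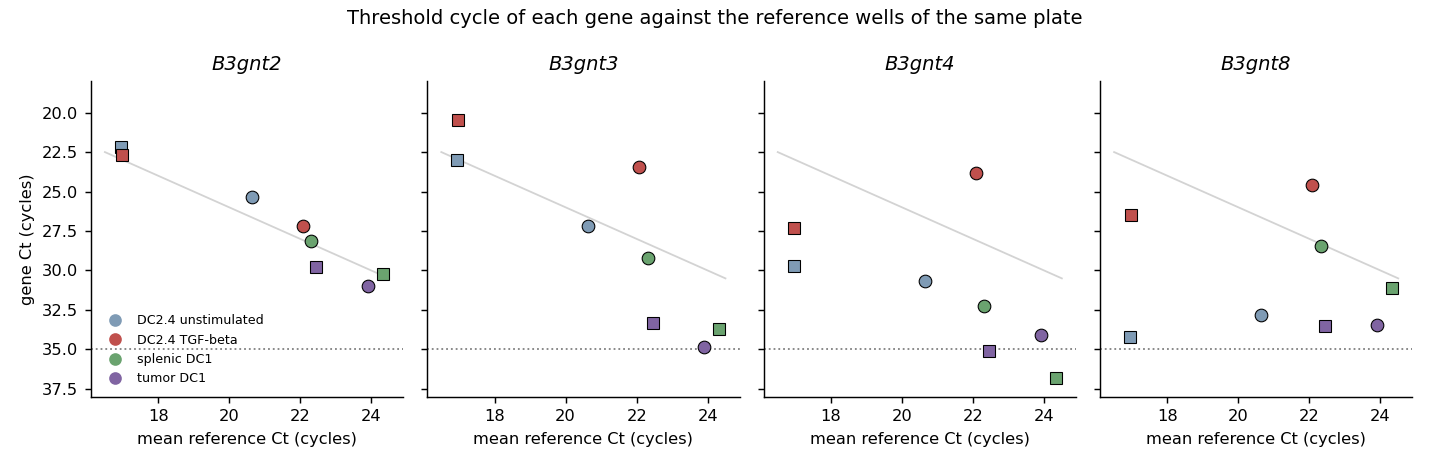
Ct of each gene (vertical axis, cycles, with early Ct at the top) against the mean Ct of the 5 reference wells of the same sample (horizontal axis, cycles); circles are replicate 1, squares replicate 2, the grey line is a constant relative level and the dotted line Ct 35. B3gnt2 stays near the line, at Ct 22.2 to 31.0, with DC2.4 cells above it and tumor DC1 below it. B3gnt8 in DC2.4 cells separates by treatment and not by reference Ct.

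The first comparison asked whether B3gnt genes differed between treated and unstimulated DC2.4 cells. With limma and a threshold of 0.05 on the adjusted p, 0 of the 4 genes passed, as was the case for the panel, where 0% of 69 genes passed. B3gnt3 had an unadjusted p under 0.05, which 15.9% of the tested genes had. B3gnt3 and B3gnt8 were higher in both treated samples than in both unstimulated ones, 2 of 4 genes, against 29% of the panel apart in that direction. The median log2 difference was 4.62 over the 4 genes and 0.29 over all 69. The family was chosen with earlier results of this comparison known, so the count and the median are descriptions.

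B3gnt3 was 14.7-fold higher with TGF-beta, a log2 difference of 3.88 ± 0.89 (SE, n = 2 per group, adjusted p = 0.13). B3gnt8 had the largest difference and a wide interval, at 8.73 ± 3.19 with a 95% interval from -0.33 to 17.8 (adjusted p = 0.32). B3gnt4 was 5.35 ± 3.30 (adjusted p = 0.62). B3gnt2 was -0.44 ± 0.49, with a 95% interval from -1.82 to 0.94 (adjusted p = 0.82), so a rise of the size seen in B3gnt3 lies outside its interval.

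Differences were also taken within pairs of samples of like median Ct, where the pairs were nearest for B3gnt2 and farthest apart for B3gnt4. Between the treated and unstimulated samples with early Ct the log2 difference was 7.77 for B3gnt8, 2.58 for B3gnt3, 2.43 for B3gnt4 and -0.51 for B3gnt2. Between the samples with late Ct it was 9.69, 5.18, 8.28 and -0.37. All of these pairs kept the sign of the fit. With this pairing as a block, chosen after seeing the data, the SE of B3gnt8 was 0.67 and its adjusted p was 0.07.

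The size of 3 of the differences depended on single samples, where a group of 1 sample is assumed to vary like the other group. Without TGF-beta replicate 1, B3gnt8 was 5.21 and passed (adjusted p = 0.002), B3gnt3 was 2.82 and did not pass, and B3gnt4 was 1.07. Without TGF-beta replicate 2 they were 12.24, 4.94 and 9.64 and all 3 passed. Without unstimulated replicate 1 and 2, B3gnt8 was 11.28 and 6.17 and did not pass.

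**Figure D3:**
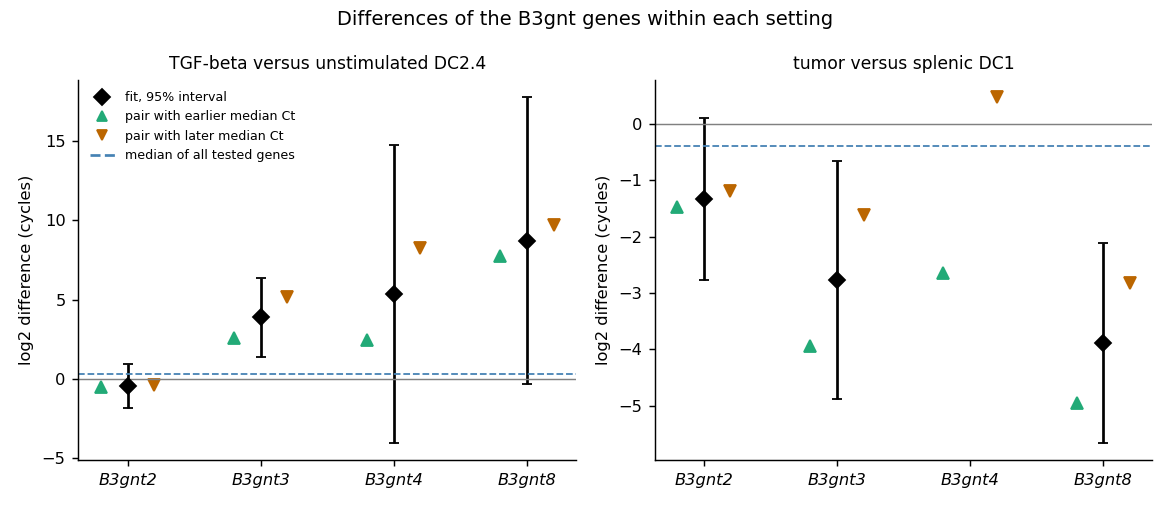
Log2 difference (vertical axis, cycles) of each B3gnt gene with TGF-beta in DC2.4 cells (left) and in tumor against splenic DC1 (right). Diamonds are the fit with its 95% interval, triangles the differences within the pair of samples of earlier and of later median Ct, and the dashed line the median of all tested genes, 0.29 on the left and -0.39 on the right. B3gnt4 has no diamond on the right because it was left out of that test.

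The authors' deposited table lists 3 folds for treated over untreated cells, normalized to beta-actin. In the authors' deposited table B3gnt8 was listed at 824, 517 and 521, B3gnt4 at 310.5, 195 and 158, B3gnt3 at 36.1, 22.7 and 21.1, and B3gnt2 at 0.77, 0.48 and 0.735. Up to a constant factor, the first column of the authors' deposited table matched the difference between replicate 1 of each group within 0.05 log2 units in 65 of 82 genes. The second column of the authors' deposited table matched that same difference in 63 of 82, and the third matched the mean of replicates 1 and 2 in 44. Treated replicate 1, on which the first pair of columns rests, is the sample in which B3gnt4 and B3gnt8 stood highest, and those columns are not independent of each other.

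The second comparison asked how the genes differed between tumor and splenic DC1, and the files leave its direction unsettled. The signs given follow the labels of the samples, while the authors' deposited table runs the other way: across 62 genes, its columns had Spearman correlations between -0.967 and -0.961 with the differences from the sample files. In the authors' deposited table the tumor over spleen folds of B3gnt8 were 13.7, 11.5 and 9.88, those of B3gnt3 6.12, 5.90 and 5.71, those of B3gnt4 5.61, 5.65 and 7.27 and those of B3gnt2 1.96, 1.94 and 1.95. The columns of the authors' deposited table matched the mean of replicates 1 and 2 with the groups exchanged in 36 to 43 of 70 genes, within 0.05 log2 units and up to a constant, and as labelled in 2 to 4. With the 2 DC1 labels exchanged, each of the signs below for this comparison turns.

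Of the 3 genes tested, B3gnt8 was lower in the samples labelled tumor and B3gnt2 and B3gnt3 did not pass, where 8.06% of the 62 panel genes tested passed, all of them lower. B3gnt8 was 14.8-fold lower, with a log2 difference of -3.88 ± 0.75 (SE, n = 2 per group, adjusted p = 0.020). B3gnt3 was -2.78 ± 0.89 (adjusted p = 0.097) and B3gnt2 -1.33 ± 0.61 with a 95% interval from -2.77 to 0.11 (adjusted p = 0.28). In all 3 genes both tumor samples lay below both splenic samples, as they did in 41.9% of the genes tested. The median was -2.78 over the 3 genes and -0.39 over all genes tested. In such samples fewer cells of a type and less RNA per cell cannot be told apart.

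The call on B3gnt8 was lost in 7 of 22 alternatives, among them the Gapdh well alone (-1.91), the B2m well alone (-4.15), the fit on all 8 samples, late Ct set to 40 and the leaving out of tumor replicate 2 (-3.14). Against the mean of the other 4 reference wells, Gapdh itself was lower by 2.46 log2 units in tumor DC1, at -2.30 and -2.09 against 0.20 and 0.34 in splenic DC1. Its part in the result was not tested, and with Gapdh as the only reference the difference of B3gnt2 turned to 0.64.

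B3gnt3 depended on the splenic sample used. Leaving out splenic replicate 2 gave -3.99, and leaving out splenic replicate 1 gave -1.56. With the Hsp90ab1 well alone or the mean of the panel B3gnt3 passed, at -2.64 and -2.13. It also passed with the Actb or Gusb well alone, both at -3.70, and not with the B2m or the Gapdh well alone, at -3.04 and -0.81. In the fits with the Actb, B2m, Gapdh or Gusb well alone, B3gnt2, B3gnt3 and B3gnt8 had the same SE, at 1.01, 1.68, 0.84 and 0.52 in turn. Those 4 results rest on a spread shared over the panel and not on that of B3gnt3. Within pairs of like template amount B3gnt8 was -4.95 and -2.82, B3gnt3 -3.94 and -1.62 and B3gnt2 -1.47 and -1.19, for the earlier and the later pair. These 3 genes kept one sign in both pairs. With the pairs as a block, chosen after seeing the data, B3gnt3 passed (adjusted p = 0.0087), as did B3gnt8 (adjusted p = 0.00014), and B3gnt2 did not (adjusted p = 0.34). The block also gave these 3 genes the same SE, 0.80, so its p-values do not measure the spread of each gene.

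B3gnt4 was left out of this test because the third splenic file broke its relation to the others at that well. The Ct there, 16.4, is what the relation gives if the second file is counted as 0, and that file holds 36.8. With such genes kept, B3gnt4 had a log2 difference of -1.08 ± 0.94 (adjusted p = 0.60), and its sign differed between the pairs of like template amount, -2.65 and 0.48.

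**Figure D4:**
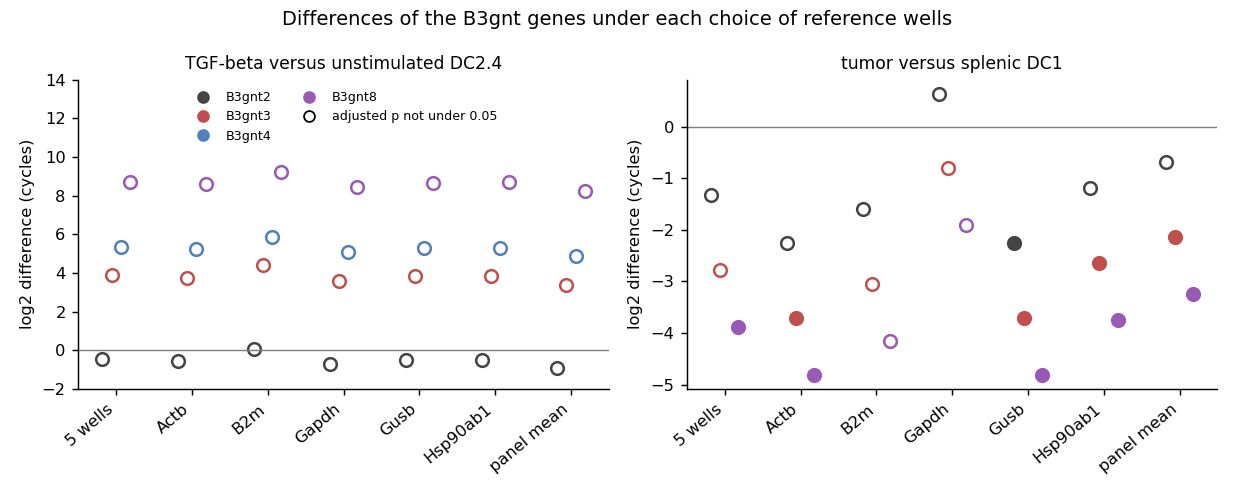
Log2 difference (vertical axis, cycles) of each B3gnt gene under 7 choices of reference (horizontal axis), for TGF-beta in DC2.4 cells (left) and tumor against splenic DC1 (right); filled symbols passed at an adjusted p under 0.05. On the left B3gnt3, B3gnt4 and B3gnt8 stay at 3.37 or above and none is filled, and on the right B3gnt8 ranges from -4.81 to -1.91.

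The next comparison tested whether the difference in DC1, as labelled, was another than the difference with TGF-beta in DC2.4 cells. It passed for B3gnt3 and B3gnt8, 2 of the 3 genes tested, against 16.4% of 61 panel genes and 14.8% in the same direction, lower. The DC1 difference minus the DC2.4 difference was -6.66 ± 1.25 for B3gnt3 (SE, limma contrast over 8 samples, adjusted p = 0.0021) and -12.61 ± 2.80 for B3gnt8 (adjusted p = 0.0064). For B3gnt2 it was -0.89 ± 0.80 with a 95% interval from -2.66 to 0.88 (adjusted p = 0.63). With the splenic and tumor labels exchanged, a setting added after seeing the data, B3gnt3 was -1.10 (adjusted p = 0.89) and B3gnt8 -4.84 (adjusted p = 0.69), and 0 panel genes passed, so both calls rest on the labelled direction. The call on B3gnt3 held in 22 of 24 alternatives, the exceptions being that exchange and the deposited series matrix, which kept the unmoved wells. That of B3gnt8 was lost in 6, among them the leaving out of either splenic sample.

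Levels were also set across the settings, with the caution that the line and the sorted cells differ in source and in template amount, and that these fits share samples with those above. Unstimulated DC2.4 cells and splenic DC1 differed in B3gnt8 alone of the 3 genes tested, against 11.5% of 61 panel genes. B3gnt8 was higher in splenic DC1 by 8.30 ± 1.98 (adjusted p = 0.016), while B3gnt2 was -0.91 ± 0.57 and B3gnt3 -1.84 ± 0.89. With the median Ct of each sample as a covariate B3gnt8 was 2.81 and did not pass, and without either splenic sample it did not pass, at 7.98 and 8.62. Without unstimulated replicate 1 and 2 it was 10.86 and 5.75 and passed in both. Without splenic replicate 1 and 2 B3gnt3 was -3.06 and -0.63.

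Tumor DC1 and treated DC2.4 cells differed in B3gnt3 and B3gnt2, 2 of the 3 genes tested, against 34.4% of 61 panel genes and 23% in the same direction, lower. B3gnt3 was lower in tumor DC1 by 8.50 log2 units (-8.50 ± 0.89, adjusted p = 2.7e-05), and it passed in each of 24 alternatives, between -10.34 and -5.72. B3gnt2 was -1.80 ± 0.57 (adjusted p = 0.031), lost its call in 9 alternatives and turned to 0.98 with the Gapdh well alone. B3gnt8 was -4.31 ± 1.98 (adjusted p = 0.11), with -0.80 when TGF-beta replicate 1 was left out and -7.83, which passed, when replicate 2 was. With the labels exchanged, B3gnt3 was -5.72 and passed, B3gnt2 was -0.47 and B3gnt8 -0.43. Under that exchange the DC1 group set against unstimulated cells had B3gnt8 at 4.42 (adjusted p = 0.15), B3gnt3 at -4.62 (adjusted p = 0.0038) and B3gnt2 at -2.24 (adjusted p = 0.014), and the last 2 passed.

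The partner enzymes of polylactosamine were read from 4 lists. Of the galactose partners B4galt1, B4galt2, B4galt3 and B4galt5, which supply the galactose to which B3gnt enzymes add, 0 of 4 passed with TGF-beta and all 4 lay above 0, as did 60.9% of the panel, with a median of 2.82 against 0.29 for the panel. B4galt1 had the smallest p of the list, with levels of -0.56 and -0.34 in treated and -3.60 and -3.85 in unstimulated cells, a difference of 3.27 ± 0.42 (adjusted p = 0.053). In DC1, 1 of 3 tested passed and was lower, against 8.06% of the panel. This was B4galt5, at -6.25 and -6.22 in tumor and -2.95 and -2.96 in splenic samples, a difference of -3.28 ± 0.60 (adjusted p = 0.020).

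Of 8 Mgat genes on the panel, listed together as N-glycan branching, 6 were tested and 0 passed in either comparison. Their median was 1.58 with TGF-beta, with 4 above 0 and 2 below, and -0.91 in tumor against splenic DC1, with all 6 below 0, as were 72.6% of the panel. Mgat5, which makes the branch that B3gnt8 and B3gnt2 extend, was at -4.62 and -4.82 in treated and -7.62 and -8.41 in unstimulated cells, a difference of 3.29 ± 0.49 (adjusted p = 0.053). Mgat4a, which adds another branch, had the smallest p in DC1, at -2.09 ± 0.63 (adjusted p = 0.088).

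Of the O-glycan core enzymes 3 were tested and 0 passed in either comparison, with medians of -0.05 and -0.39. C1galt1, which makes the core 1 structure that B3gnt3 extends, was -3.39 and -3.23 in treated and -5.22 and -5.15 in unstimulated cells, a difference of 1.88 ± 0.40 (adjusted p = 0.12). Gcnt1, which makes the core 2 branch, was -0.69 ± 0.79 in DC1 (adjusted p = 0.70). Of the enzymes that cap chains with sialic acid or fucose, 0 of 7 passed with TGF-beta and 0 of 5 in DC1, with medians of 0.16 and -0.07. St8sia4, a polysialyltransferase, was -2.83 and -4.19 in treated and -4.58 and -4.47 in unstimulated cells (adjusted p = 0.62), and St3gal1, which sialylates core 1, was -1.15 ± 0.62 in DC1 (adjusted p = 0.34).

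Likeness of pattern was measured as the root mean square difference between profiles over the 8 measured samples, each centred on its own mean, among 65 other genes under Ct 35 in at least 6 samples. The genes of a sample share its reference wells and template, and the reference cancels in this measure. B3gnt2 lay nearest to Galnt2, at 0.41 log2 units, Aga, at 0.48, and Man2a2, at 0.52. B3gnt3 lay nearest to Galnt3 (0.82), Galnt6 (1.31) and B4galt1 (1.71). The nearest genes to B3gnt4 were B4galt5 (2.14), Galnt7 (2.27) and Mgat3 (2.32), and those to B3gnt8 were Mgat3 (2.51), B3gnt4 (2.68) and B4galt5 (3.19). The profiles of B3gnt4 and B3gnt8 were themselves 3.21 and 4.16 in root mean square, so their nearest genes were not close, and B3gnt2 and B3gnt8 were 4.26 apart.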

How the data were processed

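Glycosylation genes were measured by SYBR Green PCR in 12 samples, and RNA and cDNA kits are those of the labels' protocols. Per the file headers, baselines ran from cycle 3 to 15 and the threshold was 0.2. The sample files deposited by the authors hold 1 Ct per well. The series matrix deposited by the authors holds Ct minus the Ct of beta-actin, a log2 scale on which higher means less RNA. The authors' deposited table holds a ratio of test over control, 2 to the minus delta-delta Ct per the file header. Only the first reference well is named in the files, as Actb, and B2m, Gapdh, Gusb and Hsp90ab1 follow the usual layout of the manufacturer.

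Wells were named by matching the series matrix within 0.002 cycles. The third splenic and second tumor files were moved by 1 well, which raised their correlation with the first splenic file from 0.04 to 0.96 and from 0.12 to 0.77. Within 0.002 cycles, the third file of a group equalled a constant times the mean of the other 2, with blanks as 0, in 319 of 354 wells. The files so computed were left out, as were genes that broke this relation (B3gnt4 in splenic DC1 among them). Wells G06 to G12 of the first splenic file were left out where they held whole numbers or repeats. Its other wells were not checked for these. The series matrix kept the unmoved values. Genes under Ct 35 in at least 2 of 4 samples compared were tested by the two-sided moderated test of limma 3.58.1 (lmFit, eBayes) under R 4.3.3, and p-values were adjusted by Benjamini-Hochberg over the genes tested. Comparisons across settings used all 8 samples and the genes tested in both settings.

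The genes and lists were chosen with earlier results of these data known. The text names the 4 members, list genes that passed or had the smallest p, and the 3 genes nearest in pattern. The fit was tested on simulated data, with the spread of each gene drawn at random from those of the panel. Changes of 2, 4 and 8 log2 units were called in 34.1%, 70.6% and 87.2% of cases for TGF-beta. For DC1 they were called in 28.1%, 75.6% and 97.8%, so a gene that did not pass is not shown to be unchanged. These rates are averages over the panel and not those of B3gnt4 and B3gnt8. In treated cells their replicates differed by 8.58 and 7.03, against a panel median of 0.92. The number of samples limits precision. Python 3.11.15, pandas 2.3.3 and matplotlib 3.10.9 were used.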

Additional observations from a re-analysis of the deposited data

Results flagged for a closer look

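For B3gnt3 and B3gnt8 the difference in DC1 minus that with TGF-beta in DC2.4 cells passed its test, although within the settings only the DC1 difference of B3gnt8 passed. The contrast was -6.66 for B3gnt3 and -12.61 for B3gnt8 on the log2 scale (limma contrast, adjusted p = 0.0021 and 0.0064, n = 2 per group). The sign within DC1 follows the sample labels, which the authors' deposited table contradicts. With the splenic and tumor labels exchanged, the same test gave -1.10 and -4.84 (adjusted p = 0.89 and 0.69). Groups of 2 samples were too small to test single samples as outliers.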

How the results depend on the processing

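No paired analysis was possible because the labels number the samples through the series and give no replicate number shared between groups, and the block of early and late Ct used here pairs samples by their measured Ct, not by a label. With TGF-beta, 0 of the 4 genes were called, against 2 with all 12 deposited files, 1 with a trend and robust prior and 1 with median Ct as a covariate, and 0 to 3 when single samples were left out. In DC1, 1 of 3 was called, against 0 with the B2m or Gapdh well alone, late Ct at 40, the fit on all 8 samples, median Ct as a covariate or the series matrix. It was 2 with the Actb or Hsp90ab1 well alone, the panel mean, the trend and robust prior or the block of early and late Ct added after seeing the data, and 3 with the Gusb well alone or all 12 files. Leaving out single samples gave 0 to 2. For splenic DC1 against unstimulated cells the count of 1 became 2 with the Actb well alone, 3 with all 12 files and 0 with late Ct at 40, no filter, genes kept, the trend and robust prior, median Ct as a covariate or the series matrix, and single samples gave 0 to 1. For tumor DC1 against treated cells the count of 2 became 1 with the Gapdh or Hsp90ab1 well alone or the panel mean and 3 with the Actb well alone, all 12 files or median Ct as a covariate, and single samples gave 1 to 3. For the difference between settings the count of 2 became 1 with genes kept or the trend and robust prior and 0 with the series matrix, and single samples gave 1 to 2. The sign of B3gnt2 turned to 0.067 with the B2m well alone for TGF-beta. With the Gapdh well alone it turned to 0.64 in DC1, 0.98 for tumor DC1 against treated cells and 1.37 for the difference between settings, and there with the panel mean to 0.26. With the splenic and tumor labels exchanged, added after seeing the data, the DC1 differences of B3gnt2, B3gnt3 and B3gnt8 turned by construction to 1.33, 2.78 and 3.88, and B3gnt2 turned to 1.78 for the difference between settings. The counts under this exchange were 2 for the DC1 group against unstimulated cells, 1 against treated cells and 0 for the difference between settings. In the other alternatives that gave them a value, B3gnt3, B3gnt4 and B3gnt8 kept their sign. The third file of each group was computed from the other 2, so the fits on all 12 files add no separate measurement. With them the SE of B3gnt3 for TGF-beta went from 0.89 to 0.58, and the added calls are not further evidence. The series matrix kept the unmoved wells. In the second tumor sample its B3gnt8 value rests on a Ct of 27.7, against 33.5 after the move. The cause of the other changes was not tested, beyond the fewer samples or other genes that an alternative itself fits. In DC1 the 3 tested genes had the same SE with the Actb, B2m, Gapdh or Gusb well alone, the block or a sample left out. In the comparisons over 8 samples they had the same SE with the Actb or B2m well alone. For tumor DC1 against treated cells it was 0.97 and 1.44. Calls in these fits rest on a spread shared over the panel, as do those with TGF-beta replicate 1 left out of the DC2.4 comparison. With TGF-beta replicate 2 left out they rest on it almost wholly, at an SE of 0.82 to 0.84. The nearest genes did not change with the Actb well alone, since the reference cancels. Over the panel the count of genes called was 0 with TGF-beta and 0 to 15 in the alternatives. It was 5 and 0 to 38 for tumor against splenic DC1, 7 and 0 to 26 for splenic DC1 against unstimulated cells, 21 and 5 to 44 for tumor DC1 against treated cells and 10 and 0 to 18 for the difference between settings. Late Ct limits B3gnt4 in DC1, where 2 of 4 samples were over 35. B3gnt3 and B3gnt8 were close to 35 in tumor DC1.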
